A study of Homo sapiens with 6 samples.

Results

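The ZNF-numbered genes of chromosome 19 lie in tandem clusters along the chromosome, and their expression was examined in SKBR3 cells with and without CTTN overexpression. A row of the deposited gene table was taken as a member when its position was on chromosome 19 and any of its gene names was ZNF followed by a number, with an optional A, B or C. This gave 215 of 54644 rows. A row can merge overlapping genes: 26 member rows hold several ZNF names, and 48 hold several names of any kind, so a value of such a row belongs to the whole row.

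SKBR3 is a HER2-positive breast adenocarcinoma line of epithelial type. The Con group carried the empty pLVX lentiviral vector, the CTTN group carried pLVX with CTTN cDNA, and both were stable lines kept after puromycin selection. Each group had 3 biological replicates, sequenced as poly(A)-selected mRNA. The comparison asks which genes differ in cells that express extra CTTN, which encodes the actin-binding protein cortactin. The libraries are named SK-CTTN-1 to SK-CTTN-3 and SK-CON-1 to SK-CON-3, and held 34887069 (SK-CON-1) to 41279816 reads (SK-CON-2). Whether a stable line was 1 clone or a pool is not given in the sources used here.

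Most proteins of this family pair an array of C2H2 zinc fingers, which read DNA, with an amino-terminal KRAB domain. The KRAB domain recruits the corepressor TRIM28, which brings the histone methyltransferase SETDB1, HP1 proteins and histone deacetylases to the bound site. The family grew by tandem duplication, many members bind retrotransposons, and the ZNF clusters themselves are covered by heterochromatin. Several members are known for promoter methylation in tumours.

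CTTN itself was measured first, as a check of the labels. Its FPKM, a fragment count scaled for transcript length and library depth, was 263 in SK-CTTN-1, 329 in SK-CTTN-2 and 180 in SK-CTTN-3. The 3 Con libraries had 104, 108 and 108. All CTTN libraries were above all Con libraries, and the log2 fold change was 1.35 with a standard error (SE) of 0.22 (edgeR quasi-likelihood test, Benjamini-Hochberg adjusted p = 0.0248). Without SK-CTTN-3 it was 1.57 (edgeR adjusted p = 0.000186), and without SK-CTTN-1, SK-CON-1, SK-CON-2 or SK-CON-3 the edgeR adjusted p was between 0.121 and 0.154.

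Markers of the line and of other cell types were read in the same way. ERBB2, the gene of HER2, was at 1644 to 1790 FPKM in all 6 libraries, and KRT19 had the highest mean of the 10 luminal and HER2 markers, at 2167 FPKM. CDH1 was near absent at 0.117. Mean FPKM was under 0.1 for 4 of 5 fibroblast markers, with COL1A1 the most abundant at 3.61. Of the 3 endothelial markers PECAM1 was at 0.0126, but CDH5 was at 1.58, 2.02 and 1.43 FPKM in the CTTN libraries and 3.96, 4.45 and 4.03 in the Con libraries. CDH5 fell (log2 fold change -1.49, edgeR adjusted p = 0.00843). VWF, the third marker, had a mean of 0.134 FPKM with overlapping groups. The summed endothelial FPKM, most of it from CDH5, was 1.69, 2.17 and 1.56 in CTTN and 4.12, 4.62 and 4.19 in Con. The part of CDH5 in any ZNF result was not tested. In bulk RNA, fewer cells with a transcript and less of it per cell cannot be told apart.

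The CTTN libraries were not alike, which bears on every comparison of the groups. SK-CTTN-3 was farthest from the Con libraries, with a Pearson r of log2 counts across genes of 0.968 to 0.972, against 0.995 to 0.996 among the Con libraries. SK-CTTN-1 lay between, at 0.985 to 0.987 with the Con libraries, and SK-CTTN-2 had 0.990 to 0.991. Among the CTTN libraries, SK-CTTN-3 had an r of 0.990 with SK-CTTN-1 and 0.976 with SK-CTTN-2. Transcripts of up to 1000 bases held 19.8% of reads in SK-CTTN-3 and 13.1% to 16% in the other 5, with SK-CTTN-1 the next highest. Transcripts of over 5000 bases held 8.47% of reads in SK-CTTN-3, 11.2% in SK-CTTN-1 and 14.2% to 15.2% in the other 4. The median SD over mean of the tested member rows was 16.8% among the CTTN libraries and 6.65% among the Con libraries. Main group results are given with and without SK-CTTN-3.

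Across the family, expression in SKBR3 ranged from no read at all to a mean of 85.1 FPKM. Of the 215 member rows, 103 (47.9%) had an FPKM of at least 1 in all 6 libraries, 50 (23.3%) were under 0.1 in all 6, and 62 lay between. The 252 ZNF rows on other chromosomes had 71.4% and 9.13% in the first 2 classes. The median over all 215 rows was 1.18 FPKM, and the 8 most abundant rows held 40.7% of the summed member FPKM. Members took 0.179% to 0.211% of all reads in a library. A KRAB motif was found in the predicted products of 179 rows and not in 33, while 3 (ZNF788, ZNF285B and ZNF807) could not be matched to a coding transcript. Rows with a KRAB motif had a median of 0.935 FPKM, those without one 4.79 FPKM. Among rows with enough reads to be tested, these medians were 2.38 and 6.63 FPKM.

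The 8 most abundant member rows were led by the row of ZNF580, ZNF581 and CCDC106 at 85.1 FPKM. ZNF146, which encodes a protein made almost only of zinc fingers, followed at 48.4. Next came the row of ZNF544 and ZNF8 (45.1), ZNF787 (42.9), ZNF444 (42.5), the row of ZNF653 with ECSIT and ELAVL3 (35.5), ZNF428 (27.9) and the row of ZNF17, ZNF547, ZNF548 and ZNF749 (24.9). Of these, 6 have no KRAB motif, among them ZNF444, a SCAN-domain protein. In shared rows the level cannot be given to 1 gene.

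Along the chromosome, members were grouped into 16 clusters wherever neighbours lay within 1 Mb, and 9 clusters held 5 or more members. The cluster nearest the q end, from ZNF628 to ZNF324 over 3.04 Mb, had 48 members, of which 26 were at 1 FPKM or more in all libraries and 6 under 0.1. The cluster from ZNF175 to ZNF331 held 33 members, all with a KRAB motif, and 22 of them were at 1 FPKM or more. From ZNF557 to ZNF846, 11 of 14 members reached that level, and its most abundant gene was ZNF317 at 10.6 FPKM. The cluster from ZNF146 to ZNF573 had 10 of 24 and the cluster from ZNF575 to ZNF296 had 10 of 21. The cluster from ZNF653 to ZNF791 had 8 of 19. The smaller clusters from ZNF554 to ZNF77 and from ZNF807 to ZNF792 had 2 of 5 and 3 of 6, led by ZNF57 at 4.03 FPKM and ZNF302 at 4.395 FPKM. ZNF761 was the most abundant row of the ZNF175 to ZNF331 cluster at 15.5 FPKM, in a row shared with TPM3P9.

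The remaining large cluster, from ZNF101 to ZNF254, was split in 2 parts. Its first 8 members, ZNF101, ZNF14, ZNF506, ZNF253, ZNF93, ZNF682, ZNF486 and ZNF90, had mean values of 0.492 to 7.38 FPKM. The next 27 members in a row, from ZNF626 to ZNF254 at chr19:20535825-24129961 (GRCh38), were silent. Of these, 25 had no read in any of the 6 libraries, and ZNF724 and ZNF681 had 1 read each. The next member toward the q end, ZNF536, also had no read. It lies more than 1 Mb away, in another cluster, and was not counted in the stretch. The stretch was singled out after its values were seen. It holds 29 ZNF names, among them ZNF43, ZNF85, ZNF91, ZNF100, ZNF208, ZNF257 and ZNF431, and 26 of the 27 rows have a KRAB motif. ZNF91, a repressor of SVA and LINE-1 retrotransposons, lay in it with 0 reads in every library.

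The silence was not limited to ZNF genes. Of the 113 rows in the stretch that are not members, 8 had any read, while 52.7% of all rows of the gene table had none. RPSAP58, a ribosomal protein pseudogene, had 723 reads over the 6 libraries, and the next, RPL34P34, RPS27P29 and PCGF7P, had 26, 20 and 7. All 4 are copies of genes expressed elsewhere, and reads of near-identical copies may be placed on them. Outside the stretch, 23 of 188 members were under 0.1 FPKM in all libraries, but only 5 had no read: ZNF536, ZNF285B, ZNF135, ZNF835 and ZNF132. Among ZNF rows of other chromosomes, 12 of 252 had none. The zeros stood in Con and CTTN libraries alike. Why it held no reads was not tested, and no DNA measurement was analysed.

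Promoter sequence was compared between silent and expressed members. A RefSeq promoter entry (GRCh38.p14) matched 162 rows, and the letters CG were counted on 1 strand in the 250 bases before the start, where the count is the same on both strands. The 75 matched rows at 1 FPKM or more had a median of 17 CG, with 93.3% holding at least 10. The 16 matched silent rows outside the stretch had a median of 16 and a share of 87.5%. The 19 matched rows in the stretch had a median of 8, and 42.1% held at least 10, against 52.2% of all 35116 promoters. The 6 matched members of the same cluster outside the stretch, which all had reads, were much like it, with a median of 8.5 and a range of 7 to 14. ZNF486, expressed just before the stretch, and ZNF91, silent inside it, both had 7 CG. These 2 promoters are shown with each CG in capitals, at chr19:20166964-20167213 on the plus strand and chr19:23395472-23395721 on the minus strand.
ZNF486: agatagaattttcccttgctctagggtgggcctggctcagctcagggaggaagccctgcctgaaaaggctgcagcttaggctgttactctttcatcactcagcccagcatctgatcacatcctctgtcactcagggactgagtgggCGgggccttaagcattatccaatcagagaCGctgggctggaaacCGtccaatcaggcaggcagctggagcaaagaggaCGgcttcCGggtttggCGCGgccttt
ZNF91: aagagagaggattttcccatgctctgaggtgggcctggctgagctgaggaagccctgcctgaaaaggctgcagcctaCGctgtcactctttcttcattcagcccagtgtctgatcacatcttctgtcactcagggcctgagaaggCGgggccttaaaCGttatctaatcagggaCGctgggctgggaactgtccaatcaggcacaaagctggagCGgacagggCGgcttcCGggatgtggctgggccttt
A CG count describes the sequence and says nothing about its methylation in these cells.

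In the comparison of CTTN with Con by edgeR, 2 chromosome 19 ZNF genes fell and none was called higher. ZNF556 and ZNF549 were lower in all 3 CTTN libraries, by 1.81-fold and 2.18-fold. Both encode KRAB zinc finger proteins, with 9 and 13 finger motifs. Of the 215 member rows, 155 had enough reads to be tested; the other 60 had at most 57 reads over all libraries. At an adjusted p under 0.05, 2 of 155 tested members were called lower, and 2.03% of all 14409 tested rows were. None was called higher by edgeR, against 2.43% of all tested rows, while 12 members were higher and 26 lower at an unadjusted p under 0.05, where 16.2% and 14% of all tested rows were. Both lower counts are close to the shares over all rows.

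ZNF556 (chr19:2867335-2883445, GRCh38) lies in the cluster nearest the p end. Its normalised counts (CPM, reads scaled to the size of the library) were 5.001, 5.88 and 4.398 in SK-CTTN-1, SK-CTTN-2 and SK-CTTN-3, and 9.50, 9.22 and 8.99 in the 3 Con libraries. Every CTTN library was below every Con library, with SK-CTTN-3 the lowest. The means were 5.09 ± 0.744 and 9.24 ± 0.257 (SD, n = 3 each), and the log2 fold change was -0.86 (SE 0.13, edgeR adjusted p = 0.0178). Per length the gene was at 1.04 ± 0.367 FPKM in CTTN and 2.28 ± 0.127 FPKM in Con. ZNF57, 1 of its neighbours in the cluster, had 9.87 to 10.7 CPM in all 6 libraries, with no separation of the groups.

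ZNF549 (chr19:57527356-57540876, GRCh38) lies near the q end. It had 25, 28 and 24 reads in the CTTN libraries and 46, 73 and 66 in the Con libraries. As CPM the CTTN libraries were nearly equal, at 0.706, 0.745 and 0.728, and the Con libraries were at 1.30, 1.74 and 1.72. The groups did not overlap, although the depth was low. The log2 fold change was -1.13 (SE 0.20, edgeR adjusted p = 0.0300).

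The promoters of the called genes are printed because both members fell. The 250 bases before the start of ZNF556 hold 4 CG, and those of ZNF549 hold 16. They lie at chr19:2867085-2867334 and chr19:57527106-57527355, both on the plus strand, with each CG in capitals.
ZNF556: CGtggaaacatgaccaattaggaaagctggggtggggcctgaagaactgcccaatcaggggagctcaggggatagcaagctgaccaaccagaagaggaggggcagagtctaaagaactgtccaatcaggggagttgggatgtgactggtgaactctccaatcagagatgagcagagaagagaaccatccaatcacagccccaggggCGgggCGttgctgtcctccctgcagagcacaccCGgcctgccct
ZNF549: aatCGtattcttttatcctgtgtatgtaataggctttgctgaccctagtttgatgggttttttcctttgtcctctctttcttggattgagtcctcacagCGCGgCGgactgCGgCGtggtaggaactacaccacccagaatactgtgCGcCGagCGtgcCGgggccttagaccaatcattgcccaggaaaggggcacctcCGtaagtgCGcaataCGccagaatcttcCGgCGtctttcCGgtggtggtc

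Both calls were kept without SK-CTTN-3, with edgeR adjusted p = 0.00686 for ZNF556 and 0.0264 for ZNF549. They were also kept without SK-CTTN-2 (0.00127 and 0.00698). Without SK-CTTN-1, SK-CON-1, SK-CON-2 or SK-CON-3 in turn, the fold changes stayed between -0.84 and -1.26 but the edgeR adjusted p was between 0.0793 and 0.178, so no member was called. Over all members, 2 were called higher and 8 lower without SK-CTTN-3, where 4.56% and 3.99% of all tested rows were called. Without SK-CTTN-2 the counts were 14 and 46 of 156, where 22.9% and 24.2% of all tested rows were called. DESeq2 called 2 higher and 11 lower of 152, where it called 6.94% and 6.57% of all rows, and limma on log2(FPKM + 0.1) called none.

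The next members by p had values below the Con range without passing the test. ZNF264 had 2.77, 3.48 and 2.61 CPM in the CTTN libraries and 5.03, 5.58 and 4.35 in the Con libraries (edgeR adjusted p = 0.0510). Its FPKM did overlap, at 1.04 ± 0.179 and 1.09 ± 0.264, and it is a sum over 7 estimated isoforms, led by a short transcript of 774 bases. ZNF552 was the most evenly separated, with 38.7, 39.2 and 39.4 CPM in CTTN against 50.8, 48.2 and 48.8 in Con (edgeR adjusted p = 0.0544). Its CTTN libraries were nearly equal, SK-CTTN-3 included. ZNF235 had 3.02, 3.30 and 2.34 CPM against 4.47, 4.50 and 4.53 (edgeR adjusted p = 0.0642). The row of ZFP30, ZNF607 and ZNF781 had 9.86, 10.6 and 7.28 CPM against 13.9, 13.7 and 13.5 (edgeR adjusted p = 0.0720). All 4 passed at an adjusted p under 0.05 without SK-CTTN-3 (edgeR, 0.0276 to 0.0498), as did ZNF121 and ZNF441, which are named because of that result.

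On the upper side, ZNF880 was the only KRAB gene among the 6 smallest p. It had 0.706, 0.426 and 0.728 CPM in CTTN and 0.311, 0.357 and 0.234 in Con, on 9 to 25 reads a library (edgeR adjusted p = 0.107). The other 5 rows have no KRAB motif, and in each SK-CTTN-3 was the highest library. The row of ZNF497 with A1BG had 6.41, 5.91 and 9.13 CPM against 4.47, 4.22 and 3.70 (edgeR adjusted p = 0.0625). Its main transcript is 475 bases long and the row cannot be assigned to ZNF497. ZNF428, a protein with 1 finger motif, had 30.9, 25.9 and 48.4 CPM against 22.9, 21.4 and 25.5 (edgeR adjusted p = 0.141). The rows of ZNF358 with TEX45, of ZNF653 and of ZNF580 and ZNF581 had log2 fold changes of 0.67, 0.37 and 0.50 (edgeR adjusted p = 0.0899, 0.123 and 0.142). In the fit without SK-CTTN-3 these were 0.46, 0.23 and 0.25, and that of ZNF428 went from 0.59 to 0.29. Without SK-CTTN-3 the ZNF497 row (edgeR adjusted p = 0.0320) and ZNF160 (0.0320), named because of that result, were called higher.

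As a group the tested members lay slightly below the rest. Their median log2 fold change was -0.15, and over all 14409 tested rows it was 0.01. Values were below 0 for 103 of 155 members. All CTTN libraries were below all Con libraries in 38 members (24.5%) and above in 12 (7.74%), where each holds for 19.4% of all tested rows. The 224 tested ZNF rows of other chromosomes had almost the same median, -0.16. Without SK-CTTN-3 the medians were -0.08 for the chromosome 19 members and -0.08 for the others, and without SK-CTTN-2 they were -0.21 and -0.23.

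Members were also read by whether they have a KRAB motif. The 127 tested rows with the motif had a median log2 fold change of -0.18, with 91 below 0. The 28 tested rows without it had a median of 0.18, with 16 above 0. Without SK-CTTN-3 the medians were -0.10 and 0.02, and without SK-CTTN-2 they were -0.25 and 0.30. On other chromosomes, ZNF rows with and without the motif had -0.16 and -0.16. The difference between the 2 classes was not tested.

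Base composition moved with this split. The main transcripts of tested KRAB members had a median GC content of 42.8%, and those of tested members without the motif 62.3%. Across 153 tested members with a known transcript, the log2 fold change correlated with GC content (Pearson r 0.50, Spearman rho 0.41) and with log2 transcript length (r -0.32, rho -0.34). These are descriptions across genes that share the same 6 libraries. Over 14038 rows of all kinds the same correlations were 0.31 and -0.39. With SK-CTTN-3 left out, the Pearson r was 0.37 and -0.22 across members and 0.26 and -0.23 over all rows. The 18 tested members with a GC content of at least 60% had a median log2 fold change of 0.39, and all rows of that GC content 0.26. The 31 tested members under 40% had -0.28, and all such rows -0.16. The 61 tested members of 40% to 45% had -0.17, and all such rows -0.10. The 43 tested members of 45% to 60% had -0.14, while all such rows had 0.04. With SK-CTTN-3 left out, members of at least 60% and under 40% had 0.22 and -0.18, and all such rows 0.17 and -0.11. Members of 40% to 45% and of 45% to 60% then had -0.07 and -0.08, and all such rows -0.07 and 0.03. Each library's trend over GC content and length was then removed, an alternative added after seeing the data. The medians became -0.07 with the motif and -0.03 without it. Members of 45% to 60% GC stayed at -0.14, with 29 of 43 below 0, while all such rows had 0.03. Members under 40%, of 40% to 45% and of at least 60% had -0.02, -0.02 and -0.04. In that fit ZNF556 (log2 fold change -0.52, edgeR adjusted p = 0.0163) and ZNF549 (-0.92, 0.0264) were still called, with 5 more members lower and 2 higher, where 6.26% of all tested rows were called lower and 6.7% higher. The part of transcript composition or RNA quality in the split was not tested further.

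The medians were also read library by library. The median log2 difference of KRAB members from the Con mean was -0.16 in SK-CTTN-1, -0.06 in SK-CTTN-2 and -0.30 in SK-CTTN-3. The Con libraries lay between -0.01 and 0.03. Members without the motif had 0.07, 0.05 and 0.43 in the CTTN libraries. SK-CTTN-3 was the lowest of the 6 libraries in 80 of 155 tested members (51.6%) and the highest in 32 (20.6%), while over all tested rows the shares were 37.7% and 37.6%. SK-CTTN-2, the library with the most CTTN, was the closest to Con in both classes. The 110 tested genes inside the ZNF clusters that are not members went the other way, at 0.15, 0.04 and 0.28. Their median log2 fold change was 0.18, and 0.10 without SK-CTTN-3. Their main transcripts had a median GC content of 56.0%. After removal of the GC and length trend, their median was 0.02 and that of the members -0.05.

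Summed over all 215 rows, member FPKM was 860, 827 and 1022 in the CTTN libraries and 821, 819 and 839 in the Con libraries. The means were 903 ± 104 and 826 ± 10.8 (SD, n = 3), a ratio of 1.09 that was within the CTTN spread. Without SK-CTTN-3 the ratio was 1.02. The total FPKM of all genes differed as well, at 704018, 605260 and 852256 in the CTTN libraries and 603634 to 624680 in the Con libraries. With each library scaled to the same total the ratio was 0.935. The direction of the summed difference thus depends on that scaling.

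The clusters were read by the median of their tested members. Among clusters with at least 5 tested members, the median log2 fold change ran from -0.29 in the ZNF146 to ZNF573 cluster to 0.13 in the ZNF554 to ZNF77 cluster, which holds ZNF556. In the former, 15 of 18 tested members were below 0, and 8 had all CTTN libraries below all Con libraries (44.4%, against 19.4% of all tested rows). Its main transcripts had a median GC content of 39.4%, the lowest of these clusters. At an unadjusted p under 0.05, 2 of the 18 were lower and 1 higher, where 14% and 16.2% of all tested rows were. None was called in the fit of all libraries. With SK-CTTN-2 left out, 7 of the 18 were called lower and 1 higher, where 24.2% and 22.9% of all tested rows were. In the fit of all libraries the ZNF175 to ZNF331 cluster had -0.20, and the ZNF628 to ZNF324 cluster, the richest in GC at 48.9%, had -0.03. Without SK-CTTN-3 the range was -0.22 in the ZNF146 to ZNF573 cluster to 0.08 in the ZNF807 to ZNF792 cluster. Without SK-CTTN-2 the lowest was the ZNF175 to ZNF331 cluster at -0.364, next to the ZNF146 to ZNF573 cluster at -0.360. The highest in that fit was the ZNF554 to ZNF77 cluster at 0.16. With the GC and length trend removed the range was -0.20 in the ZNF146 to ZNF573 cluster to 0.14 in the ZNF807 to ZNF792 cluster. In that fit the ZNF101 to ZNF254 cluster was near the low end at -0.18. The difference between clusters was not tested. ZNF146 itself had 157, 156 and 130 CPM in CTTN and 173, 181 and 163 in Con (edgeR adjusted p = 0.176). ZNF486 in the ZNF101 to ZNF254 cluster had 18.5, 19.5 and 14.9 CPM against 24.1, 24.2 and 22.7 (edgeR adjusted p = 0.0845). ZNF302 had 3.77 to 4.99 FPKM with overlapping groups.

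Members with a known role were looked up whatever their values. ZNF274, which recruits SETDB1 to ZNF genes, had 16.1, 17.0 and 13.5 CPM in CTTN and 17.9, 18.9 and 18.5 in Con (edgeR adjusted p = 0.170). ZNF331, an imprinted gene, had 26.2, 31.7 and 19.9 CPM against 34.6, 35.3 and 35.3 (edgeR adjusted p = 0.137). Both were below Con in all CTTN libraries without passing the test. ZNF93, a LINE-1 repressor, was at 0.436 ± 0.263 FPKM in CTTN and 0.547 ± 0.127 FPKM in Con, with overlapping libraries. The genes often methylated in tumours were low in both groups: ZNF132 had no read, ZNF154 had 0 to 2 reads a library, ZNF382 1 to 4, ZNF677 1 to 11 and ZNF671 3 to 23. Their methylation was not measured here. ZNF808, linked to pancreas development, shares a row with ZNF701, which had 12.4 to 17.7 CPM with overlapping groups.

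The cofactors through which KRAB proteins act were expressed in every library. All 36 genes of a list of KRAB corepressors and heterochromatin factors had an FPKM of at least 1 in all libraries, with a median of 19.7. None was called in either direction by edgeR, which called 2.43% of all tested rows higher and 2.03% lower. At an unadjusted p under 0.05, 2 were higher and 6 lower, where 16.2% and 14% of all rows were. Their median log2 fold change was -0.01, and -0.02 without SK-CTTN-3. Without SK-CTTN-2 it was -0.08, with 6 called higher and 15 lower, where 22.9% and 24.2% of all tested rows were called. TRIM28, the corepressor that KRAB domains bind, was at 139, 109 and 192 FPKM in CTTN and 109, 113 and 117 in Con. SETDB1 was at 37.6, 36.6 and 36.6 FPKM in CTTN, above the 28.8, 25.2 and 29.1 of Con (log2 fold change 0.36, edgeR adjusted p = 0.0643). TRIM24 lay below Con at 7.08, 7.76 and 6.35 FPKM against 8.54, 9.47 and 9.46 (edgeR adjusted p = 0.0609). Without SK-CTTN-3 both were called, SETDB1 higher (edgeR adjusted p = 0.0106) and TRIM24 lower (0.0444), and they are named after their values were seen. In that fit 4.56% of all tested rows were called higher and 3.99% lower. With the GC and length trend removed, 1 of the 36 was called higher and 3 lower, where 6.7% and 6.26% of all tested rows were. SETDB1 was the higher gene (log2 fold change 0.56, edgeR adjusted p = 0.00323), and DAXX (0.0270), CHD3 (0.0456) and EHMT1 (0.0472) were lower by edgeR adjusted p. The row of EHMT1 also holds ARRDC1 and AL590627.2, and that of DAXX holds AL662820.1, so these values belong to the whole rows. The EHMT1 row had a log2 fold change of 0.03 before that removal and -0.33 after it. TRIM24 was at -0.18 in that fit (edgeR adjusted p = 0.101).

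Other zinc finger names on chromosome 19, outside the ZNF number rule, covered 41 rows of ZFP, ZSCAN, ZIM, ZIK, ZBTB and PEG3 genes and of ZNF antisense and pseudogene names. Of the 15 tested, 1 was called lower and none higher by edgeR, with 3 lower and 2 higher at an unadjusted p under 0.05. Over all tested rows the shares were 2.03% and 2.43%, and 14% and 16.2% at an unadjusted p under 0.05. The called gene, named for its call, was ZFP82, a KRAB zinc finger gene, at 1.64, 1.94 and 1.601 FPKM in CTTN and 3.94, 2.95 and 3.07 in Con (log2 fold change -0.82, edgeR adjusted p = 0.0211). Without SK-CTTN-3, ZFP82 (edgeR adjusted p = 0.0121) and the pseudogene ZNF137P (0.0477) were called lower and none higher. Over all tested rows of that fit 3.99% were called lower and 4.56% higher. ZFP36, whose name is alike but whose fingers are of the CCCH type, was at 6.59 to 8.02 FPKM in all libraries.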

How the data were processed

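Per the labels, RNA of stable Con and CTTN SKBR3 lines (3 libraries each) was made into stranded mRNA libraries, and the submitters' processing notes name bcl2fastq 2.20.0, Trimmomatic, STAR, Cufflinks and GRCh38. The methods of the study name Cutadapt and the hg19 reference instead. The deposited position of ZNF556 matched its RefSeq position on GRCh38, and GRCh38 was used. Whether counting used strand is not given in the sources used here. The deposited gene signal is read counts that the authors divided by a scale for each library. Multiplied by the deposited scale, all values under 1000 came within 0.05 of a whole number. The FPKM of genes and isoforms was deposited by the authors and used as it stood. The sample descriptions and the sample table number the Con columns differently, so these were mapped to their group only. No value column was left unused. The members and lists were chosen with earlier results of these data known.

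Whole reads were tested with edgeR 4.0.16 (TMM, filterByExpr with a minimum count of 10, quasi-likelihood test) in R 4.3.3 across all rows, with an adjusted p under 0.05 as the call. DESeq2 1.42.0 and limma 3.58.1 (pseudocount 0.1 or 1, mean FPKM of at least 0.1) were alternatives, as were other filters and scalings, a fold of at least 1.5, and leaving out each library. The edgeR fit was tested on simulated data. Clusters join members up to 1 Mb apart. The main transcript of a row is its isoform with the highest mean FPKM. GC content, KRAB motif and finger motifs come from GENCODE transcripts and their longest reading frames, and promoter sequences from RefSeq. The lists were KRAB corepressors and heterochromatin factors, cell type markers and other zinc finger names of chromosome 19. Named members were up to 12 called in each direction, filled to 6 by p, the 8 most abundant, the most abundant of each cluster of 5 or more, and 10 textbook genes.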

Additional observations from a re-analysis of the deposited data

How the results depend on the processing

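ZNF556 and ZNF549 were lower in CTTN under every alternative that gave a value, and both passed an adjusted p under 0.05 in all libraries with DESeq2, with library totals alone and with no filter. They missed it with limma and when SK-CTTN-1 or any single Con library was left out, but not when SK-CTTN-2 or SK-CTTN-3 was. The replicate block with the numbers of the sample table also lost both (edgeR adjusted p = 0.0666 and 0.0957). Over the alternatives, adjusted p ranged from 1.6e-05 to 0.124 for ZNF556 and from 0.00158 to 0.186 for ZNF549. The number of members called higher (0) and lower (2) became 2 and 11 with DESeq2, and 2 and 4 with no filter on low counts. With at least 50 counts in every library of a group, 1 was called lower, since ZNF549 was then not tested. Limma on log2(FPKM + 0.1) or log2(FPKM + 1) gave 0 lower. Removal of the GC and length trend gave 2 higher and 7 lower, and the 2 Con columns named in the descriptions alone gave 0 lower. Leaving out 1 library gave 0 to 14 higher and 0 to 46 lower. For all rows the 643 calls became 1867 with DESeq2, 976 with no filter, 115 and 94 with limma at pseudocounts 0.1 and 1, 1868 without the GC and length trend and 29 with the 2 described Con columns. Leaving out 1 library gave 15 to 6925. The most calls came without SK-CTTN-2. The cause was not tested.

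The rise of CTTN kept its direction. It missed the threshold with limma, at 1.23 and 1.22 (limma adjusted p = 0.0658 and 0.0722), and with the described Con columns, at 1.33 (edgeR adjusted p = 0.136). Leaving out 1 library gave 1.10 to 1.57. The member median of -0.15 became -0.074 with limma at pseudocount 1 and -0.046 without the GC and length trend, and leaving out 1 library gave -0.21 to -0.08. Summed member FPKM, CTTN over Con, was 1.09, and 0.935 at equal totals. A gap of 2 Mb gave 7 clusters in place of 16.

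Whether the replicate numbers pair libraries is not given in the sources used here. Same-numbered libraries of the sample table had correlations of deviations from the group means of 0.02, 0.08 and -0.19, and those numbered alike in the descriptions had -0.01 and 0.20. A replicate block with the sample table numbers gave 105 calls, 0 members lower and CTTN at 1.30 (edgeR adjusted p = 0.0588). A replicate block over the 4 libraries numbered alike in the descriptions gave 1622 calls, 3 members higher, 7 lower and a member median of -0.081.

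Among the named members, 348 values kept direction and side of the threshold, 41 passed it, 16 no longer did and 23 changed sign, none of them of a gene called in all libraries by edgeR. The row of ZNF17, ZNF547, ZNF548 and ZNF749 (0.01) became -0.0078 with DESeq2, -0.044 with library totals, -0.0011 with no filter, -0.13 with the replicate block of the descriptions, -0.035 with the described Con columns, -0.23 without the GC and length trend, and -0.093 to 0.072 when 1 library was left out. The row of ZNF544 and ZNF8 (-0.0048) became 0.0059 with at least 50 counts, 0.26 and 0.25 with limma, and -0.047 to 0.023 when 1 library was left out. With limma, ZNF317 became 0.28 and 0.26 and ZNF761 0.14 and 0.13. Without the GC and length trend, ZNF444 (0.19) became -0.27 and was called lower (edgeR adjusted p = 0.0160), ZNF787 -0.10 and the ZNF580 and ZNF581 row -0.034. The causes were not tested. ZNF549 and other members with few reads are limited by depth.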
